A study of Mus musculus with 6 samples.

Results

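P2+CD4+ T cells of Aire GW/+ Lyn-/- mice that had not developed uveitis are described here, divided by whether their TCR was found in more than 1 cell. P2 is a peptide of the retinal protein IRBP, and P2+CD4+ T cells are CD4 T cells that bind a tetramer of P2 and the MHC class II molecule I-Ab. Aire drives the display of tissue proteins in the thymus, and its GW allele acts dominantly and lowers Aire function, while Lyn is a kinase that restrains signalling in B cells and myeloid cells. All mice of the series that were used here carried both changes, and no mouse without them was measured. The cells came from lymph nodes (LN; axillary and submandibular nodes and the cervical nodes that drain the eye) of 16 pooled mice at 9 wk of age, and the pool is 1 sample. Of 970 cells with a paired TCR in the 3 TCR libraries of the series, 470 came from this pool. The other 500 came from 2 pools of mice of the same genotype and age with uveitis, which are used only for comparison. Expanded clonotypes were defined by a measured value, the number of cells, as those with 2 or more. By this rule 80 cells fell into 21 expanded clonotypes and 390 cells into 390 clonotypes of 1 cell.

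A T cell builds its TCR from 2 chains, each joined during development from gene segments. The α chain (gene locus TRA) joins 1 of many V segments to 1 of many J segments, and the β chain (TRB) joins V, D and J. The joint forms the CDR3, the loop that lies over the peptide, and bases added or trimmed at the joint can make it close to unique to a cell and its progeny. When a T cell meets its antigen it divides, and its progeny keep both joints, so that a clonotype seen in several cells can mark a family of cells. TRB rearranges first, and an allele that failed to give a protein is usually kept in the genome. TRA rearranges on both chromosomes, so that many T cells make a second TRA transcript, and some a second functional α chain.

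The assay gives all RNA of a cell 1 barcode and every molecule its own tag, a unique molecular identifier (UMI), and reports assembled TCR transcripts as contigs. A cell was counted when it held a productive TRA and a productive TRB contig, and of several contigs of 1 chain the one on most UMIs stood for the cell. A clonotype is a set of cells in which V gene, J gene and CDR3 bases of both chains are the same. The contigs carry no label of the mouse, so the cells of 1 clonotype could come from different mice of the pool. Whether they descend from 1 cell was not tested. The library without uveitis held 512 barcodes, 1648 contigs and 21408 UMIs, of which 42 barcodes had no complete pair. Of its 470 paired cells, 0 had the TRAV11/TRAJ18 joint of invariant NKT cells and 0 the TRAV1/TRAJ33 joint of MAIT cells, which allows a share of up to 0.638% each (3 counts). It held 0 contigs of the γ and δ loci. Of the barcodes, 1 also occurred in uveitis dataset 2, in a cell of a 1-cell clonotype. With 1 pool without uveitis there is no test of any difference below. Each share is followed by its 95% binomial interval (exact, Clopper-Pearson), which covers counting error only, not the spread between mice. For shares counted by cell, the interval also treats the cells of 1 clonotype as independent.

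The 21 expanded clonotypes are named E1 to E21 by their number of cells. E1 held 18 cells, E2 held 7, E3 held 6, E4 held 5, and E5, E6 and E7 held 4 each. E8 to E11 had 3 cells each and E12 to E21 had 2 cells each, which is the least the rule allows. The CDR3 sequences of the clonotypes on which the results below turn are printed 5′ to 3′ from the deposited contigs. Capitals mark the bases that neither the germline V gene nor the germline J gene of GRCm38 matched, which include the D gene bases of TRB.
E1 CDR3α, TRAV9N-4/TRAJ12: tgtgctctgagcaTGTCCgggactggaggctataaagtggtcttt
E1 CDR3β, TRBV31/TRBJ1-6: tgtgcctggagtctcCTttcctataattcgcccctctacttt
E2 CDR3α, TRAV9-2/TRAJ31: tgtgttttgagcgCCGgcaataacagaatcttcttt
E2 CDR3β, TRBV20/TRBJ2-2: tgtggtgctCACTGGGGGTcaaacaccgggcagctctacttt
E3 CDR3α, TRAV14N-1/TRAJ52: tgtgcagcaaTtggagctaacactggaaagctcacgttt
E3 second CDR3α, TRAV6-7-DV9/TRAJ47: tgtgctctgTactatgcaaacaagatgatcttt
E3 CDR3β, TRBV3/TRBJ2-2: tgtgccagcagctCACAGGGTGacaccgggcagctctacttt
E11 CDR3α, TRAV9-4/TRAJ31: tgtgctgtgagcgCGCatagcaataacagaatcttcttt
E11 CDR3β, TRBV4/TRBJ2-1: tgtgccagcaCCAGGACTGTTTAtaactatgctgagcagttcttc

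**Figure D1:**
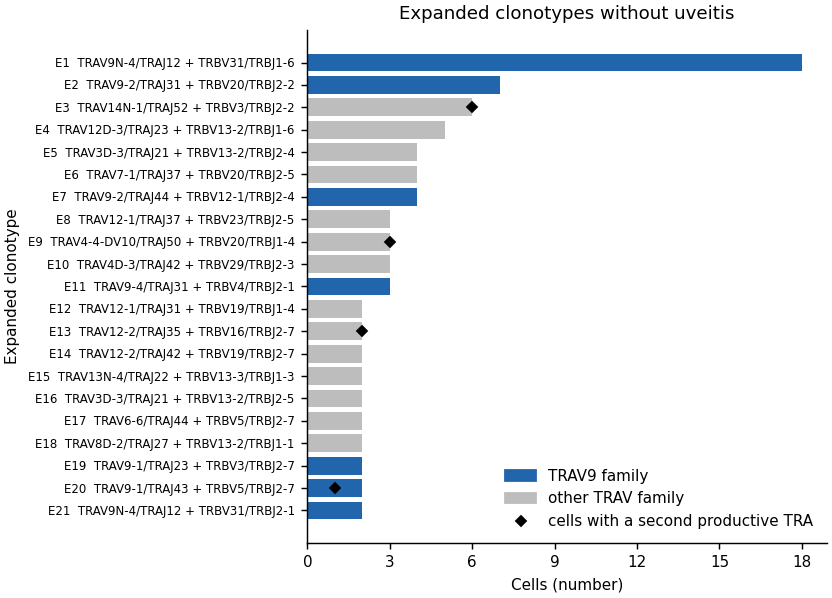
Number of cells (x axis) in each of the 21 expanded clonotypes without uveitis (y axis, with the V and J genes of both chains); blue bars are clonotypes with a Vα of the TRAV9 family, grey bars the others, and black diamonds the number of cells with a second productive TRA. E1 stands apart with 18 cells, 7 of the 21 bars are blue, and the diamonds of E3, E9 and E13 sit at the ends of their bars because all of their cells had a second TRA.

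Expanded clonotypes used Vα genes of the TRAV9 family more often than 1-cell clonotypes, counting each clonotype once. The family supplied the Vα of 7 of 21 expanded clonotypes, 33.3% (14.6 to 57.0%), and of 36 of 390 clonotypes of 1 cell, 9.23% (6.55 to 12.6%). It was the only one of 17 TRAV families, and of 18 TRBV families, whose intervals for the 2 classes did not overlap. The 7 clonotypes were E1 and E21 with TRAV9N-4, E2 and E7 with TRAV9-2, E11 with TRAV9-4, and E19 and E20 with TRAV9-1. These genes lie on the plus strand of chromosome 14 in GRCm38, from TRAV9N-4 at chr14:53294341-53295030 to TRAV9-4 at chr14:53676141-53676630, with TRAV9-1 and TRAV9-2 between them. Their β chains had little in common, since the 7 clonotypes used 6 TRBV genes. The family held 3 of 10 clonotypes with 2 cells (30%, 6.67 to 65.2%) and 4 of 11 with 3 or more (36.4%, 10.9 to 69.2%), and each of these wider intervals met that of the 1-cell clonotypes. Without E1, 6 of 20 expanded clonotypes used the family (30%, 11.9 to 54.3%), and this interval met that of the 1-cell clonotypes. E1 and E21, which are 2 of the 7, share their TRA. Counted by cell, the family held 38 of 80 expanded cells, of which E1 gave 18.

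The same family was compared in the mice with uveitis. Of the expanded clonotypes, 5 of 13 in uveitis dataset 1 (38.5%, 13.9 to 68.4%) and 14 of 36 in dataset 2 (38.9%, 23.1 to 56.5%) used it, close to the share without uveitis. Of the 1-cell clonotypes, 29 of 125 in dataset 1 (23.2%, 16.1 to 31.6%) and 28 of 106 in dataset 2 (26.4%, 18.3 to 35.9%) did. The 1-cell share without uveitis thus lay below both of these intervals, while the expanded shares of the 3 datasets lay within 5.56 percentage points of each other. The difference between the classes was 24.1 percentage points without uveitis, 15.3 in dataset 1 and 12.5 in dataset 2. With 1 pool without uveitis, the pool and the condition cannot be told apart.

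**Figure D2:**
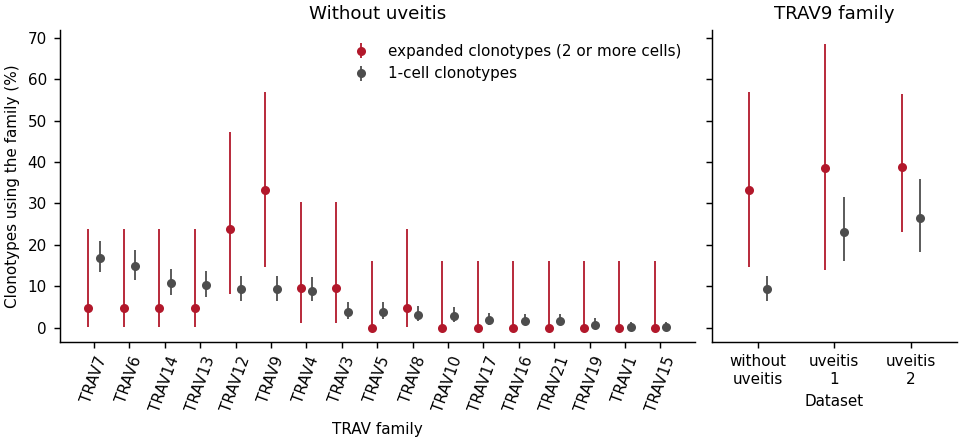
Share of clonotypes (y axis, %) that used each TRAV family without uveitis (left) and the TRAV9 family in each dataset (right); red points are expanded clonotypes, grey points 1-cell clonotypes, and bars are exact 95% binomial intervals. Only for TRAV9 on the left do the red and grey intervals not meet, and on the right the red points lie between 33.3 and 38.9% while the grey point without uveitis is the lowest at 9.23%.

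For every other family and for every single V gene the intervals of the classes overlapped. TRAV12 was the Vα of 5 expanded clonotypes (23.8%, 8.22 to 47.2%) against 9.23% of 1-cell clonotypes (6.55 to 12.6%), with overlapping intervals. TRAV7 and TRAV6, the families most used by 1-cell clonotypes at 16.9 and 14.9%, each had 1 expanded clonotype (4.76%, 0.120 to 23.8%). Of single TRAV genes, TRAV12-1, TRAV12-2, TRAV3D-3, TRAV9-1, TRAV9-2 and TRAV9N-4 each occurred in 2 expanded clonotypes and no gene in more, while TRAV6-7-DV9 and TRAV7D-2 led the 1-cell clonotypes with 17 each and TRAV6-6 followed with 16. On the β side, TRBV13-2 was used by 4 expanded clonotypes (19.0%, 5.45 to 41.9%) and 45 of 1 cell (11.5%, 8.54 to 15.1%). TRBV20 was used by 3 expanded clonotypes (14.3%, 3.05 to 36.3%) and 22 of 1 cell (5.64%, 3.57 to 8.42%). TRBV3 with 38 and TRBV2 with 34 were, after TRBV13-2, the genes most used by 1-cell clonotypes, and 2 and 0 expanded clonotypes used them. The whole TRBV13 family had nearly the same share in both classes, 23.8% (8.22 to 47.2%) and 20.5% (16.6 to 24.9%).

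The intervals also overlapped for every J gene. TRAJ31 was the only TRAJ gene in 3 expanded clonotypes, E2, E11 and E12 (14.3%, 3.05 to 36.3%), and it was in 18 of the 390 clonotypes of 1 cell (4.62%, 2.76 to 7.20%). Of these, 2 of the 3 and 3 of the 18 joined it to a TRAV9 gene. TRAJ37, TRAJ23 and TRAJ15 led the 1-cell clonotypes with 22, 21 and 20. A TRAJ segment numbered above 30, which lies on the V side of the J cluster, was used by 61.9% of expanded (38.4 to 81.9%) and 52.8% of 1-cell clonotypes (47.7 to 57.9%). The second TRB cluster, TRBJ2, supplied 71.4% (47.8 to 88.7%) and 64.1% (59.1 to 68.9%). TRBJ2-7 and TRBJ2-5 were the most used TRBJ genes of both classes, with 5 and 3 expanded and 71 and 60 1-cell clonotypes, and TRBJ2-1 followed in the 1-cell clonotypes with 41.

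E1 did not stand alone in its α chain. The same TRA, with the same 5 bases outside germline V and J, occurred in E21 and in 1 clonotype of 1 cell, and each of the 3 carried a different β chain made from the same gene, TRBV31. A second TRA, TRAV3D-3/TRAJ21, was shared by E5, E16 and a 1-cell clonotype, and all 3 carried TRBV13-2. Another, TRAV13-1/TRAJ15, was shared by 3 clonotypes of 1 cell, all with TRBV31. Of these, 1 carried the CDR3β bases of E21, so that this group and the group of E1 and E21 are linked. The β chains are shown because they differ in J gene and added bases while V is constant.
E1 CDR3β, TRBV31/TRBJ1-6, 18 cells: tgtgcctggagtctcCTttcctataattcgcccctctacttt
E21 CDR3β, TRBV31/TRBJ2-1, 2 cells: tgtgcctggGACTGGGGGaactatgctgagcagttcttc
1-cell CDR3β, TRBV31/TRBJ1-4, same TRA as E1: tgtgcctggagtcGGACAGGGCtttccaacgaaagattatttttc
E5 CDR3β, TRBV13-2/TRBJ2-4, 4 cells: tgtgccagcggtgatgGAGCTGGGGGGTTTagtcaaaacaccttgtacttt
E16 CDR3β, TRBV13-2/TRBJ2-5, 2 cells: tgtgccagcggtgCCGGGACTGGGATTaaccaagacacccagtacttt
1-cell CDR3β, TRBV13-2/TRBJ1-3, same TRA as E5: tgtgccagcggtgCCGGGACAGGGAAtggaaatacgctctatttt
CDR3α of E5 and E16, TRAV3D-3/TRAJ21: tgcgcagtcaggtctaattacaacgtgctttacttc

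The α chain of E5 and E16 had no base outside germline, that of E1 and E21 had 5. Over the library, 3 TRA were shared by 9 clonotypes, which form 9 pairs with the same TRA, and all 9 pairs had the same TRBV gene. Over all pairs of clonotypes of the library, 6.49% had the same TRBV gene. In the uveitis datasets the corresponding counts were 10 of 14 pairs against 7.86%, and 5 of 10 against 8.22%. Sharing in the other direction differed between the libraries. In the library without uveitis 17 TRB were shared by 37 clonotypes, and 1 of 23 such pairs had Vα genes of the same family, against 10.0% of all pairs. In uveitis dataset 1 the count was 8 of 38 pairs against 11.6%, and in dataset 2 it was 7 of 18 against 13.9%. The pairs of 1 chain are not independent of each other, nor are TRA groups linked by a shared CDR3β, and these counts are a description.

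Of the 390 clonotypes of 1 cell, 10 shared a chain with an expanded clonotype (2.56%, 1.24 to 4.66%), 2 by TRA and 8 by TRB. They touched 7 of the 21 expanded clonotypes. E3 shared its TRB with 2 of them, E16 and E21 with 2 each, and E9 and E14 with 1 each. Of these 10 cells, 2 held both chains of an expanded clonotype and were counted apart because another TRA ranked first. The cell beside E3 had 2 UMIs for each of its 2 TRA contigs, and the cell beside E9 had 9 UMIs for TRAV14-1/TRAJ45 and 6 for the other. Joined to E3 and E9, they would raise the expanded cells from 17.0% of all paired cells (13.7 to 20.7%) to 17.4%. Among the 1-cell clonotypes themselves, 30 shared a TRB with another (7.69%, 5.25 to 10.8%) and 3 shared a TRA (0.769%, 0.159 to 2.23%). Barcodes without a complete pair held 1 TRA and 3 TRB of expanded clonotypes, among 13 TRA and 28 TRB.

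The α loops of expanded clonotypes recurred in the mice with uveitis. The CDR3α residues of 4 of 21 expanded clonotypes (19.0%, 5.45 to 41.9%) were found in a uveitis dataset, against 6 of 390 clonotypes of 1 cell (1.54%, 0.567 to 3.32%). These 4 were E2, E4, E9 and E11, all with 3 or more cells, and the 10 clonotypes of 2 cells gave 0 (up to 30.8%). For CDR3β residues, 1 of 21 (4.76%, 0.120 to 23.8%) and 5 of 390 (1.28%, 0.418 to 2.97%) were found, with overlapping intervals. No clonotype with the same V, J and CDR3 bases in both chains was found in another dataset. The shared chains are set beside each other here.
E11 CDR3α, TRAV9-4/TRAJ31, same bases in both uveitis datasets: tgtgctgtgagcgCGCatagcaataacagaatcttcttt
E9 CDR3α, TRAV4-4-DV10/TRAJ50, without uveitis: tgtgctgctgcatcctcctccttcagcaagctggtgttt
E9 counterpart, CDR3α in uveitis dataset 2: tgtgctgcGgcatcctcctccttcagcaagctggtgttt
E9 CDR3β, TRBV20/TRBJ1-4, without uveitis: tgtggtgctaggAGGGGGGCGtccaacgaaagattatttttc
E9 counterpart, CDR3β in uveitis dataset 2: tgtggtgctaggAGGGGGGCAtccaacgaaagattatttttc
E2 CDR3α, TRAV9-2/TRAJ31, without uveitis: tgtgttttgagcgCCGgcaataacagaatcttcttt
E2 counterpart, CDR3α in uveitis dataset 1: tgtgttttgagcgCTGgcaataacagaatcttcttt

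E9 had a counterpart with the same V genes, J genes and residues in both chains in uveitis dataset 2, also of 3 cells, which differed by 1 base in CDR3α and 1 base in CDR3β. A 1-cell clonotype, TRAV12D-2/TRAJ18 with TRBV16/TRBJ2-7, also had a counterpart of both chains there, of 1 cell, with the same CDR3α bases and 2 bases changed in CDR3β. Counted by V gene, J gene and CDR3 bases, 1 of 21 expanded α chains (4.76%, 0.120 to 23.8%) and 1 of 390 of 1-cell clonotypes (0.256%, 0.00649 to 1.42%) were found in a uveitis dataset, with overlapping intervals. None of the cells of the E9 counterpart had a barcode that occurred without uveitis. The α chain of E11 was identical in bases to that of a clonotype of 37 cells in uveitis dataset 2, which paired it with TRBV31/TRBJ1-3 where E11 paired it with TRBV4/TRBJ2-1. It also occurred in 2 clonotypes of 1 cell in uveitis dataset 1, both with TRBV5. The α loop of E2 recurred with 1 base changed in a clonotype of 3 cells of uveitis dataset 1 with the same TRBV20 and TRBJ2-2 but other CDR3β residues. The CDR3α residues of E4 recurred in 2 clonotypes of 1 cell of uveitis dataset 1, each with 1 base changed. Of these, 1 used TRAV12-2 where E4 used TRAV12D-3. Outside germline V and J, the CDR3α had 1 base in E4 and 0 in E9, and 3 in each of E2 and E11. In the uveitis datasets themselves, CDR3α residues seen in another dataset were also more frequent among expanded clonotypes, 3 of 13 (23.1%, 5.04 to 53.8%) against 12 of 125 (9.60%, 5.06 to 16.2%) in dataset 1, and 13 of 36 (36.1%, 20.8 to 53.8%) against 8 of 106 (7.55%, 3.31 to 14.3%) in dataset 2. Those counts include the same shared loops, so they are not separate from the count without uveitis.

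The median CDR3α was 1 codon shorter in the expanded clonotypes. It was 39 bases (quartiles 36 and 42, range 15 to 45, 21 clonotypes) against 42 bases (39 and 42, range 15 to 51) in the 390 clonotypes of 1 cell. The quartiles and ranges overlapped, and no interval was computed for the difference. The medians of both classes were 39 bases in each uveitis dataset. CDR3β had a median of 42 bases in both classes, with ranges of 30 to 51 and 27 to 54. The shortest CDR3α came from TRAJ44, which gave 15 bases in E7 and 18 bases in E17. Of 6 TRAJ44 clonotypes of 1 cell, 3 were also under 27 bases, and all CDR3α under 27 bases, 2 expanded and 3 of 1 cell, used TRAJ44. The 15 bases of E7 are shown with those of E17 because they end without the germline J match found in the other expanded clonotypes. Their annotated CDR3 is given as deposited. Of the 411 CDR3α of the library, 10 could not be placed on germline V and J, 2 of them expanded.
E7 CDR3α, TRAV9-2/TRAJ44: tgtgttttgagtact
E17 CDR3α, TRAV6-6/TRAJ44: tgtgctctggcctttact
Without TRAJ44 the medians stayed at 39 and 42 bases.

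**Figure D3:**
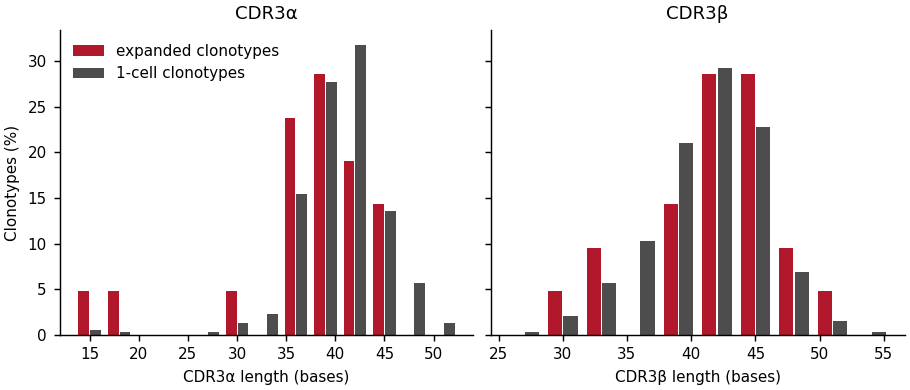
Share of clonotypes (y axis, %) at each CDR3 length (x axis, bases) for CDR3α (left) and CDR3β (right); red bars are the 21 expanded and grey bars the 390 clonotypes of 1 cell without uveitis. On the left the red bars lean to shorter lengths, with medians of 39 and 42 bases, and on the right both classes have a median of 42 bases.

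The other measures of the junctions had equal medians or overlapping intervals in the classes. The bases of CDR3α outside germline V and J had a median of 3 in both classes (19 expanded and 382 clonotypes of 1 cell that could be placed). CDR3β had a median of 9 in both (21 and 387). A CDR3α with no such base was seen in 5 of 19 expanded (26.3%, 9.15 to 51.2%) and 54 of 382 clonotypes of 1 cell (14.1%, 10.8 to 18.0%). E5 and E16, which are among these 5, share their TRA. The expanded clonotypes of the uveitis datasets had 0 of 13 (up to 24.7%) and 0 of 35 (up to 10.0%). Their 1-cell clonotypes had 13 of 119 (10.9%, 5.95 to 18.0%) and 9 of 105 (8.57%, 3.99 to 15.6%), so the intervals of the classes overlapped there too. Net charge, counted as lysine and arginine less aspartate and glutamate, was above 0 in CDR3α of 16 of 21 expanded (76.2%, 52.8 to 91.8%) and 253 of 390 clonotypes of 1 cell (64.9%, 59.9 to 69.6%). It was below 0 in 0 of 21 (up to 16.1%) and 31 of 390 (7.95%, 5.46 to 11.1%). The expanded clonotypes with uveitis had 0 of 13 (up to 24.7%) and 0 of 36 (up to 9.74%). The share was also small in the 1-cell clonotypes of uveitis dataset 1, at 6 of 125 (4.80%, 1.78 to 10.2%), and the intervals overlapped. In CDR3β the net charge was below 0 in 57.1% (34.0 to 78.2%) and 61.8% (56.8 to 66.6%). Hydrophobic residues at both positions 6 and 7 of CDR3β, counted from the first residue of the CDR3, were seen in 1 of 21 (E18) and 9 of 390 clonotypes.

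Cells of expanded clonotypes carried fewer UMIs of TRA, but not clearly fewer of TRB. The top TRA contig had a median of 5 UMIs in the 80 expanded cells (quartiles 3 and 10, range 1 to 42) and of 8 in the 390 cells of 1-cell clonotypes (5 and 14, range 1 to 71). The top TRB contig had medians of 15 (8 and 25.2) and 16 (10 and 26). The TRA difference moved with the TRAV9 family. Expanded cells of the family had a median of 3 TRA UMIs (quartiles 2 and 5.75, 38 cells) and the other expanded cells 8.5 (4 and 14.8, 42 cells). In 1-cell clonotypes the medians were 5 for the family (4 and 8.25, 36 cells) and 8 for the others (5 and 14, 354 cells). Outside the family, expanded and 1-cell clonotypes thus had 8.5 and 8, and of 11 TRAV families with at least 10 cells TRAV9 had the lowest median, at 4.5.

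E1 carried 1 to 12 TRA UMIs per cell with a median of 3.5, and 7 to 43 TRB UMIs with a median of 15.5. E2 had 1 to 6 (median 3) and 2 to 14 (median 10). E3, which uses TRAV14N-1, had 9 to 34 (median 13) and 22 to 77 (median 57), so that its lowest cell exceeded the median of E1 and E2 in both chains. The cells of E5 had 8, 14, 24 and 42 TRA UMIs, and those of E11 had 1, 2 and 5. The 7 clonotypes of the TRAV9 family had medians of 2 to 4.5 TRA UMIs, and the 14 others of 1.5 to 19, of which 11 lay above every TRAV9 clonotype. Their TRB medians overlapped more, at 5.5 to 20 and 1.5 to 57. The lowest of all was E18, whose 2 cells had 1 and 2 UMIs for each chain. In the uveitis datasets expanded cells of the family had medians of 8 and 4 TRA UMIs and the other expanded cells 6 and 5, so the family was not low there in the same way. The part of the Vα gene in the TRA difference was not tested.

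**Figure D4:**
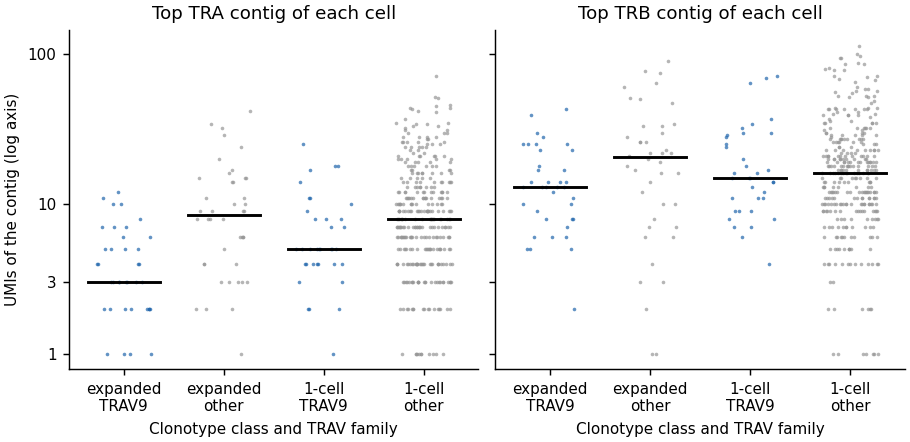
UMIs of the top TRA (left) and TRB (right) contig of each paired cell without uveitis (y axis, log scale), by clonotype class and TRAV family (x axis); each point is a cell and black lines are medians. The TRA medians are 3, 8.5, 5 and 8 from left to right, with both TRAV9 groups lower than the others, and the TRB medians are 13, 20.5, 15 and 16.

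The shares of cells with a second productive TRA had overlapping intervals, at 12 of 80 expanded cells (15.0%, 8.0 to 24.7%) and 66 of 390 cells of 1-cell clonotypes (16.9%, 13.3 to 21%). In the expanded class a second TRA was confined to 4 clonotypes, and 17 of 21 had none. The interval of the expanded cells, which treats them as independent, is therefore too narrow. All 6 cells of E3 held TRAV6-7-DV9/TRAJ47 with 4 to 29 UMIs (median 8.5), all 3 cells of E9 held TRAV14-1/TRAJ45 with 2 to 7 (median 4), and both cells of E13 held TRAV16/TRAJ38 with 4 and 5. In E20 it was in 1 of 2 cells, as TRAV6-6/TRAJ37. Among pairs of cells that both had a second TRA, 19 of 19 pairs within a clonotype had the same one by V gene, J gene and CDR3 bases, and 0 of 2984 pairs of different clonotypes did. Thinned to 10 UMIs of productive TRA and TRB per cell, which left out 11 expanded and 24 other cells with fewer, the shares were 13.1 and 14.5%.

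A second productive TRB, which allelic exclusion makes rare, was found in 2 of 80 expanded cells (2.50%, 0.304 to 8.74%), 1 in E8 and 1 in E13, and in 16 of 390 cells of 1-cell clonotypes (4.10%, 2.36 to 6.58%). No second TRB recurred within a clonotype. In uveitis dataset 1 the order was the same, with 1 of 51 (1.96%, 0.0496 to 10.4%) and 9 of 125 (7.2%, 3.345 to 13.2%). In uveitis dataset 2 the order was the other way, with 25 of 218 (11.5%, 7.56 to 16.5%) and 4 of 106 (3.77%, 1.04 to 9.38%). A non-productive TRB with a V gene recurred in E11, where 2 of 3 cells held TRBV1/TRBJ2-3 with 5 and 7 UMIs. In E2, 2 of 7 cells held TRBV4/TRBJ2-7 with 3 UMIs each, without a CDR3, and in E17 both cells held such a contig of TRAV8N-2/TRAJ32 with 7 and 12.

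TRB contigs with a J gene but no V gene were common, in 42 of 80 expanded cells (52.5%, 41.0 to 63.8%) and 223 of 390 others (57.2%, 52.1 to 62.1%), with at most 1 per cell. They were also common in uveitis dataset 1, in 26 of 51 expanded cells (51.0%, 36.6 to 65.2%) and 61 of 125 others (48.8%, 39.8 to 57.9%), but nearly absent from uveitis dataset 2, in 3 of 218 (1.38%, 0.285 to 3.97%) and 0 of 106 (up to 3.42%), so that their presence varied with the library. Their J gene recurred within clonotypes. In E1, 13 of 18 cells had such a contig, 12 of them with TRBJ2-1 (3 to 16 UMIs, median 6), although the productive TRB of E1 uses TRBJ1-6. In E3, 4 of 6 cells and in E7, all 4 cells had one with TRBJ2-7, and both clonotypes use another TRBJ in the productive chain. Of 12 expanded clonotypes with 2 or more such cells, 6 had the same J in every one. Over pairs of cells with such a contig, 84 of 104 pairs within a clonotype had the same J (80.8%), against 7728 of 34876 pairs of different clonotypes (22.2%). Without E1 these were 18 of 26 (69.2%) and 20.9%. TRBJ2-1 was the most frequent J of these contigs, at 40.0% of all, and pairs of 1 clonotype are not independent. The J gene was that of the cell's own productive TRB in 2 of 42 expanded and 27 of 223 other cells.

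**Figure D5:**
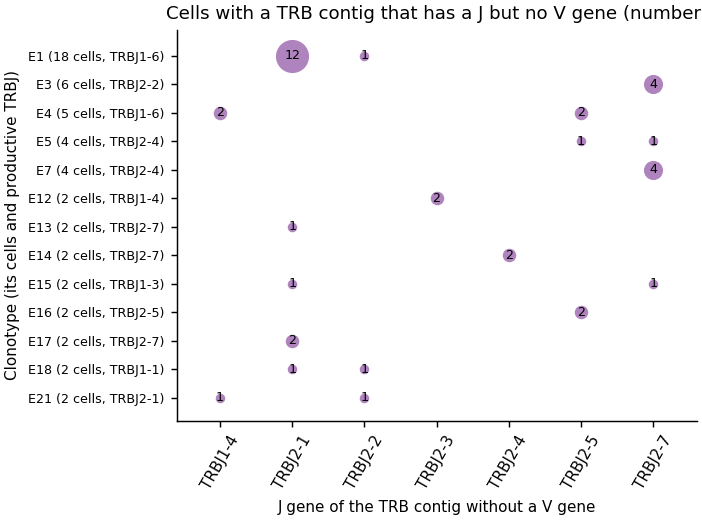
Number of cells (circle area and printed number) of each expanded clonotype (y axis, with its cells and the J gene of its productive TRB) whose TRB contig without a V gene used each J gene (x axis), for the 13 clonotypes with such a contig. The 12 cells of E1 at TRBJ2-1 form the largest circle, E3 and E7 have 4 cells each at TRBJ2-7, and E4 is divided between TRBJ1-4 and TRBJ2-5 with 2 cells each.

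The barcodes of cells of 1 clonotype were compared with each other. Over 239 pairs of cells of the same clonotype, the 16-base barcodes differed at 5 to 16 positions with a median of 12, and 0 pairs differed at 1 or 2, the distance that a sequencing error in a barcode would leave. The deposited barcodes are those that Cell Ranger had kept, so barcodes with such an error could have been removed before, and the count cannot decide this. Barcodes of different clonotypes were not compared. Other ways in which 1 cell could appear under 2 barcodes were not tested.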

How the data were processed

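Single-cell TCR libraries of P2+CD4+ T cells (10x 5′ kit, version 1.1) were analysed for 3 pools. The 3 mRNA libraries of the series were not analysed here. The authors assembled contigs with Cell Ranger (version 3, mouse VDJ reference of GRCm38), and the deposited values are counts of reads and UMIs per contig, not normalized, for barcodes and contigs that Cell Ranger had kept. Contig length was deposited in bases.

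Cells needed a productive TRA and TRB with V gene, J gene and CDR3; the contig with the most UMIs, then reads, was used. Doublets were not removed. V and J matches came from GENCODE M21 (154 of 154 genes), each at least 6 bases long. Shares have exact binomial intervals, and no test was made because each pool is 1 sample. The functions were tested on simulated contig tables. Members, gene lists and comparisons were chosen with earlier results of these data known. Named genes are those used by 3 or more expanded clonotypes and the 3 most used of each class; the shared-TRA and uveitis comparisons, and E18 among singled-out clonotypes, were added after seeing values. The depth was 21408 UMIs without uveitis and 5302 and 7439 in uveitis datasets 1 and 2. Tools were scipy 1.17.1 and numpy 2.4.6, with pandas 2.3.3 for tables, matplotlib 3.10.9 for plots and Python 3.11.15.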

Additional observations from a re-analysis of the deposited data

Results flagged for a closer look

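Some contrasts between expanded and 1-cell clonotypes had the opposite sign without uveitis and in both uveitis datasets, some of them by very small differences. They were picked by this sign rule from a larger set of contrasts. Those for second TRA and TRB, CDR3 lengths, TRBJ2 and the TRAV9 family did not meet it. In no contrast was the difference between datasets tested, since each pool is 1 sample. The median TRA UMIs of expanded cells less those of 1-cell clonotypes was -3 without uveitis (5 against 8) and 1 in each uveitis dataset (6 against 5, and 5 against 4). For TRB the difference was -1 without uveitis (15 against 16), and 5 and 1 with uveitis (16 against 11, and 10.5 against 9.5). The share of clonotypes with a TRAJ above 30 was higher by 9.08 percentage points in the expanded class without uveitis, and differed by -12.7 points in uveitis dataset 1. In uveitis dataset 2 the classes were almost equal, at 52.78 and 52.83% (-0.052 points). The TRBV13 family share was higher by 3.30 points without uveitis, against -11.0 and -1.31 points with uveitis. These share differences lay within counting error in each dataset.

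Contigs that join segments of different loci entered no comparison above. They were found in 99 of the 470 paired cells without uveitis, 1 per cell, 21 of 80 expanded (26.2%, 17.0 to 37.3%) and 78 of 390 others (20.0%, 16.1 to 24.3%). In uveitis dataset 1 they were in 12 of 51 expanded (23.5%, 12.8 to 37.5%) and 23 of 125 other cells (18.4%, 12 to 26.3%), and in dataset 2 in 0 of 218 (up to 1.68%) and 3 of 106 (2.83%, 0.588 to 8.05%), so that they varied with the library. Of the contigs without uveitis, 80 joined TRAJ50 to TRBC1, in 18 of 80 expanded cells and 62 of 390 others. Contigs with TRAJ50 were in 8 of 18 cells of E1, in all 3 cells of E9 and in both cells of E15. They recurred in no other expanded clonotype. The productive TRA of E9 uses TRAJ50 as well.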

How the results depend on the processing

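No paired analysis was possible because each result comes from 1 pooled library and from no test. Of 221 values recomputed under other settings, 215 stayed within the 95% interval of the value reported, or within 1.5 times for counts, and 6 did not. Some values could not move, such as those of 1-cell clonotypes when 3 or more cells were required. The intervals of the expanded clonotypes are also wide, so this count is a weak check. With 3 or more cells required, the expanded cells were 12.8% of the total in 11 clonotypes, and 5 clonotypes of 1 cell shared a chain with them, since 10 clonotypes were left out. Without E1 the expanded cells were 13.7% of the total. With Cell Ranger's clonotypes, 0% of expanded cells had a second TRB, because cells with a second TRB are then placed in clonotypes of their own. Without the TRAV9 family, an alternative chosen after seeing the data, expanded cells had a median of 8.5 TRA UMIs. Of expanded cells 6.25%, and of the others 3.08%, had their TRA on 1 UMI, and a second TRA cannot be seen below 1 UMI. The 21 expanded clonotypes limit the precision of every share by clonotype. Without E1 the TRAV9 share of expanded clonotypes was 30% (11.9 to 54.3%), which overlaps the interval of the 1-cell clonotypes.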
